A study of Mus musculus with 25 samples.

Results

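Livers of mice that received only the carcinogen were compared with livers of mice that received only the diet. DEN L-CD was liver of male C57BL/6J mice injected intraperitoneally with diethylnitrosamine (DEN), 25 mg/kg at 2 weeks of age, and then fed the control diet (CD) from weaning. nonDEN L-WD was liver of untreated mice of the same strain fed a western-style diet (WD), which held more lipid and sucrose and less starch than CD. The libraries titled DEN-L-CD (n = 4) and nonDEN-L-WD (n = 4) make up 8 of the 25 RNA sequencing libraries of the series. The other groups, which place the values and share in the estimate of spread, came from untreated mice on CD (nonDEN L-CD, liver, n = 3) and from mice with both exposures, as liver around the tumors (DEN PT-WD, n = 8) and as the tumors themselves (DEN T-WD, n = 6). Both agent and diet differ between the groups compared, so the part of each in a difference cannot be told apart from this comparison alone. The study states that tumors of DEN-injected mice on CD were too small for a reliable separation from the liver around them, so DEN L-CD tissue may include tumor. The age at harvest, which the labels leave out, is stated by the study as 1 adult age for the RNA sequencing. Another of its legends gives a range of adult ages for tissue harvest, so whether the libraries differed in age is not known. The labels do not say that libraries of a group came from separate mice, so p-values measure the spread between these libraries.

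The comparison asks how the liver after a carcinogen differs from the liver on a tumor-promoting diet. DEN is activated by cytochrome P450 enzymes of the hepatocyte and alkylates DNA. Cholesterol is made from acetyl-CoA through the mevalonate pathway, squalene and a series of sterol intermediates. The enzymes are under the control of the transcription factor SREBP2, which is held in the endoplasmic reticulum by INSIG and SCAP when sterol is plentiful and released by proteolysis when sterol is scarce. The nuclear receptor LXR senses oxidized sterols and controls genes of sterol export.

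Expected counts per library summed to 24628880 to 29415013 in DEN L-CD and 28520935 to 31120744 in nonDEN L-WD. Hepatocyte markers dominated all 8 libraries, with *Alb*, the albumin gene, between 1283110 and 2256840 normalized counts, that is, counts scaled for library size and composition. The mean read length implied by the deposited gene lengths was 73.90 bases (SD 0.058, n = 4) in DEN L-CD. It was 74.15 bases (SD 0.058, n = 4) in nonDEN L-WD, with no overlap (two-sided exact permutation test, p = 0.0286, the smallest that 4 against 4 libraries allow). Counts also leaned with base composition. The rank correlation across genes between a library's deviation and GC content lay between −0.249 and −0.0278 in DEN L-CD, was 0.123, 0.146 and 0.171 in 3 nonDEN L-WD libraries and −0.121 in replicate 4 of that group. nonDEN L-WD replicate 4 also stood apart from its group in pairwise differences of counts, with a chi-square per gene of 81.21 to 151.5, against 29.08 to 56.37 among the other 3. The effect of leaving out libraries is given beside the results.

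Few genes separated DEN alone from WD alone. Among 15625 genes tested, 39 (0.25%) were called at an adjusted p of at most 0.05 and a fold change of at least 2 (edgeR quasi-likelihood test). Fold changes below are log2 values, DEN L-CD minus nonDEN L-WD, with the standard error (SE) of the fit after ±. Of the 39 genes, 30 (0.192%) were higher and 9 (0.0576%) lower in DEN L-CD. The largest listed group among them was 5 enzymes of cholesterol synthesis, all higher in DEN L-CD. In bulk tissue, fewer cells of a type and less RNA per cell cannot be told apart. The others called included *Akr1c18*, *Cyp2a4*, *Afp* and *Gstp2*, higher in DEN L-CD, and *Hypk*, *Slc35f2* and *Tmem86a*, lower. The count was small beside that of either exposure against nonDEN L-CD, a baseline that both comparisons share. DEN L-CD differed from nonDEN L-CD in 734 genes (4.7%) and nonDEN L-WD in 825 (5.28%).

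In each of the 39 genes, the 4 DEN L-CD values and the 4 nonDEN L-WD values did not overlap, which was true of 11.3% of all genes tested. The calls were made on these same values, so nothing is read from the difference in share. The 39 were 22 protein-coding genes (16 higher, 6 lower), 13 processed pseudogenes (11 higher, 2 lower) and 4 other non-coding genes. They held 34 distinct profiles of counts, because *Rpl35a-ps2*, *Rpl35a-ps3*, *Rpl35a-ps4*, *Rpl35a-ps6* and *Gm10243* had the same count in every library, as did *Rn7s1* and *Rn7s2*. In 16 of the 39 the higher group averaged under 50 normalized counts. Without the fold threshold, 112 genes (0.717%) passed, 78 higher and 34 lower. The median GC content was 44.3% in the 78 genes, 53.2% in the 34 genes and 49.3% in all genes tested. With trends on GC content and transcript length removed from each library, an alternative chosen after seeing the data, 30 genes were called and all 5 sterol enzymes were among them.

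The count rested on single libraries. Without nonDEN L-WD replicate 3, 5 genes were called, namely *Idi1*, *Msmo1*, *Hypk*, *Lpar1* and the pseudogene *Hspe1-ps2*. It was 14 without nonDEN L-WD replicate 2, 19 without replicate 1 and 64 without replicate 4. Leaving out DEN L-CD replicate 3 or replicate 4 gave 23 each. Without DEN L-CD replicate 1 it was 29, and without replicate 2 it was 35. *Idi1*, *Msmo1*, *Hypk* and *Hspe1-ps2* were called in all 8 settings.

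**Figure D1:**
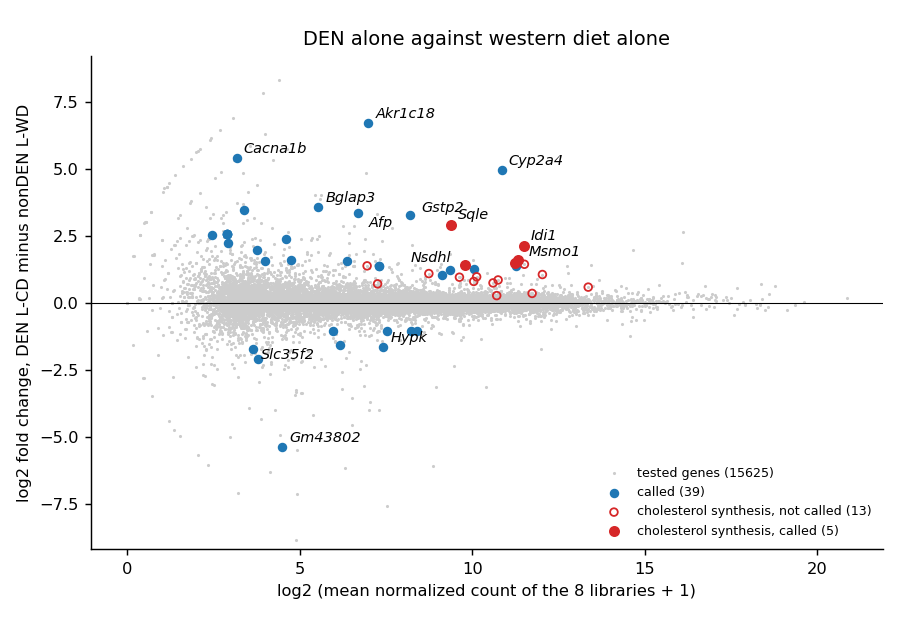
Log2 fold change of each tested gene, DEN L-CD minus nonDEN L-WD (vertical axis), against the log2 of its mean normalized count plus 1 over the 8 libraries (horizontal axis). The 39 called genes are filled, and the 18 cholesterol synthesis enzymes listed are red, filled for the 5 called and open for the 13 not called. All of the red points lie above 0.

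The list of cholesterol synthesis held 18 enzymes, all of them expressed and tested. 5 of the 18 were called higher in DEN L-CD, where 0.192% of all genes were, and none was called lower. The log2 fold change was above 0 for all 18 of them, against 48.1% of all genes, and its median over the list was 1.01, against −0.01 over all genes. Values of DEN L-CD lay wholly above those of nonDEN L-WD in 15 of the 18, against 4.99% of all genes. The list was drawn up with earlier results of these data known, so its direction is a description.

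In the mevalonate part of the pathway, *Hmgcs1*, HMG-CoA synthase, had 3832, 5169, 7874 and 5773 normalized counts in DEN L-CD replicates 1 to 4 and 2698, 3328, 3068 and 1845 in nonDEN L-WD. These groups did not overlap, but the log2 fold change of 1.05 ± 0.32 (SE, adjusted p = 0.124) did not pass. *Acat2*, the cytosolic thiolase at the entry of the pathway, overlapped between the groups (log2 0.26 ± 0.19, adjusted p = 0.614). The kinases *Mvk* and *Pmvk* and the decarboxylase *Mvd* carry mevalonate to isopentenyl diphosphate. Their log2 fold changes were 0.70, 1.08 and 1.37, with adjusted p of 0.181, 0.081 and 0.105.

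*Idi1* (chromosome 13, 8885501 to 8892451), isopentenyl diphosphate isomerase, showed the smallest adjusted p of any enzyme of the list. Its normalized counts were 3469, 4115, 6973 and 4231 in DEN L-CD and 1044, 1134, 1193 and 941 in nonDEN L-WD. Each nonDEN L-WD library lay far below each DEN L-CD library, at a log2 fold change of 2.12 ± 0.25 (SE), adjusted p = 0.000124. *Fdps*, farnesyl diphosphate synthase, which condenses its products, had 2230.4, 4013, 6357 and 4476 and 1476, 2336, 1707 and 806 counts. DEN L-CD replicate 1 lay below the highest nonDEN L-WD value, and the log2 fold change of 1.43 ± 0.36 (SE, adjusted p = 0.0629) did not pass. *Fdft1*, squalene synthase, the first enzyme committed to sterols, passed the adjusted p and not the fold threshold (log2 0.85 ± 0.19, adjusted p = 0.0422).

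*Sqle* (chromosome 15, 59315077 to 59331192), squalene epoxidase, had the largest fold change of the list. It had 685, 966, 1766 and 1290.4 counts in DEN L-CD and 204, 83.2, 129.9 and 211 in nonDEN L-WD, at a log2 fold change of 2.91 ± 0.59 (SE), adjusted p = 0.0177. The spread within each group was wide, and the groups stayed apart. *Lss*, lanosterol synthase, which closes the rings, was at log2 0.95 ± 0.37, adjusted p = 0.247. *Cyp51* (chromosome 5, 4081145 to 4104746), the lanosterol demethylase, had 2515, 2909.8, 5205 and 3732 counts in DEN L-CD and 1112, 1666, 1217 and 1096 in nonDEN L-WD, at a log2 fold change of 1.50 ± 0.29 (SE), adjusted p = 0.0152. *Tm7sf2*, the sterol reductase that acts on its product, passed the adjusted p alone (log2 0.79 ± 0.17, adjusted p = 0.0325).

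Both called enzymes of demethylation at C4 of the sterol ring were higher in DEN L-CD. *Msmo1* (chromosome 8, 64718139 to 64733792), the methylsterol monooxygenase, had 2720.4, 3782, 5154 and 3766 counts in DEN L-CD and 1225, 1345, 1468 and 1080.2 in nonDEN L-WD, at a log2 fold change of 1.59 ± 0.23 (SE), adjusted p = 0.00125. *Nsdhl* (chromosome X, 72918557 to 72958514), the sterol dehydrogenase that follows it, had 763, 1115, 1877 and 1338 counts in DEN L-CD and 504, 546, 588 and 291 in nonDEN L-WD, at a log2 fold change of 1.40 ± 0.30 (SE), adjusted p = 0.024. *Hsd17b7*, the reductase that completes this step, had log2 0.74 ± 0.19, adjusted p = 0.0629 with no overlap. Of the last enzymes, the isomerase *Ebp* had log2 0.34 ± 0.11, adjusted p = 0.136, the desaturase *Sc5d* log2 0.58 ± 0.32, adjusted p = 0.457 and the reductase *Dhcr7* log2 0.96 ± 0.31, adjusted p = 0.14. None of these 3 passed.

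**Figure D2:**
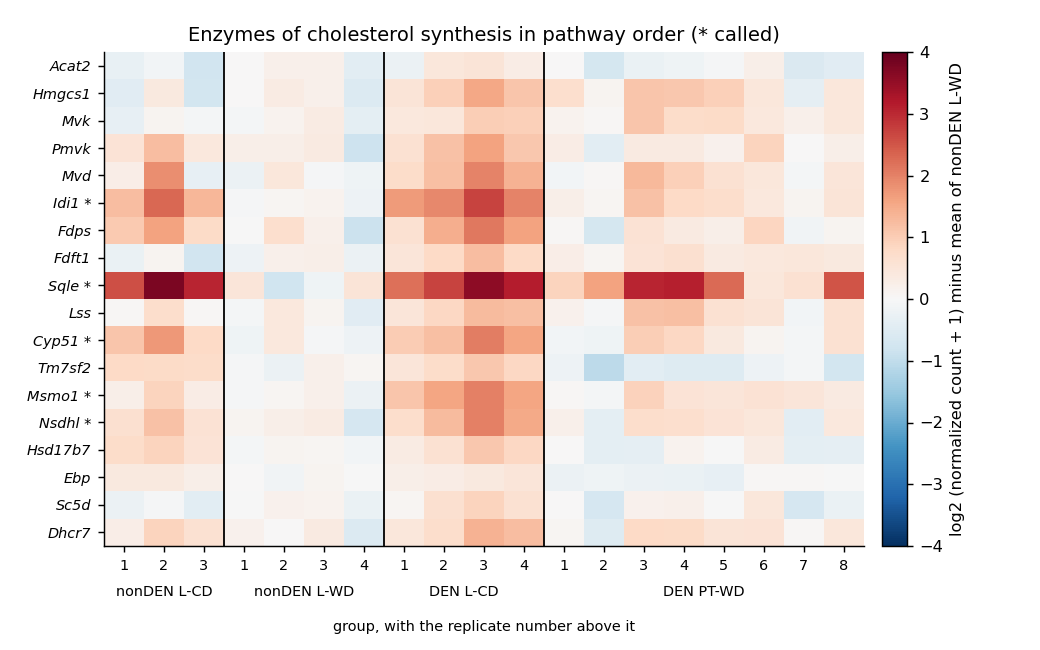
Log2 of the normalized count plus 1, minus the mean of the nonDEN L-WD libraries, for the 18 enzymes in pathway order (rows) and 19 liver libraries of 4 groups (columns, replicate numbers below). Red is above and blue below that mean, and called enzymes carry an asterisk. DEN L-CD replicate 3 is the reddest of its group, and *Sqle* is high in all 3 nonDEN L-CD libraries.

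The 4 DEN L-CD libraries differed in level. Summed over the list, TPM (reads per length, scaled to an equal total per library) were 839.9, 1201, 1640.1 and 1287 in DEN L-CD replicates 1 to 4. They were 715, 849.9, 782 and 499 in nonDEN L-WD, so the sum in DEN L-CD replicate 1 lay within the nonDEN L-WD range. By single enzymes, 15 of the 18 were above the highest nonDEN L-WD library in DEN L-CD replicate 1 and 18 in each of the others. Replicate 3 was the highest of its group in all 5 called enzymes. Without it, *Idi1* and *Msmo1* were the only enzymes of the list called. The same pair remained without nonDEN L-WD replicate 1 or replicate 3, and *Cyp51* joined it without replicate 2. *Nsdhl* lost the call in 5 of the 8 settings that leave out a library, *Sqle* in 4 and *Cyp51* in 3. Their log2 fold changes in these settings ran from 1.15 to 1.58, from 2.64 to 3.10 and from 1.26 to 1.65, in the same order.

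The nonDEN L-CD libraries place each difference against untreated liver on CD, and values are given for each called enzyme. No test compared the enzymes with each other. *Sqle* had 889, 2005 and 1212 counts in nonDEN L-CD, level with DEN L-CD and far above nonDEN L-WD. Its log2 fold change against nonDEN L-CD was −0.22 (adjusted p = 0.82) in DEN L-CD and −3.13 (adjusted p = 0.00097) in nonDEN L-WD. *Idi1* had 2552, 5242 and 2676 counts in nonDEN L-CD, with 0.43 (adjusted p = 0.255) in DEN L-CD and −1.69 (adjusted p = 9.97e-05) in nonDEN L-WD. *Cyp51* was at 2708, 4174 and 2190.3 counts there, with 0.25 (adjusted p = 0.599) and −1.25 (adjusted p = 0.00496). These 3 were called lower with WD, as were 2.04% of all genes, and not called with DEN. *Msmo1* had 1483, 2363 and 1549.9 counts, with 1.10 (adjusted p = 0.00305) in DEN L-CD and −0.49 (adjusted p = 0.143) in nonDEN L-WD. It was called higher with DEN, as were 2.76% of all genes, and not called with WD. *Nsdhl*, at 735, 1045 and 693 counts, was called in neither, with 0.63 (adjusted p = 0.165) and −0.77 (adjusted p = 0.0763). The enzymes were chosen on the same DEN L-CD and nonDEN L-WD libraries, so nothing is read from these calls. Both sets of values rest on the same 3 nonDEN L-CD libraries, and replicate 2 of these was the highest of the 3 for *Sqle*, *Idi1*, *Cyp51*, *Msmo1* and *Nsdhl*.

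**Figure D3:**
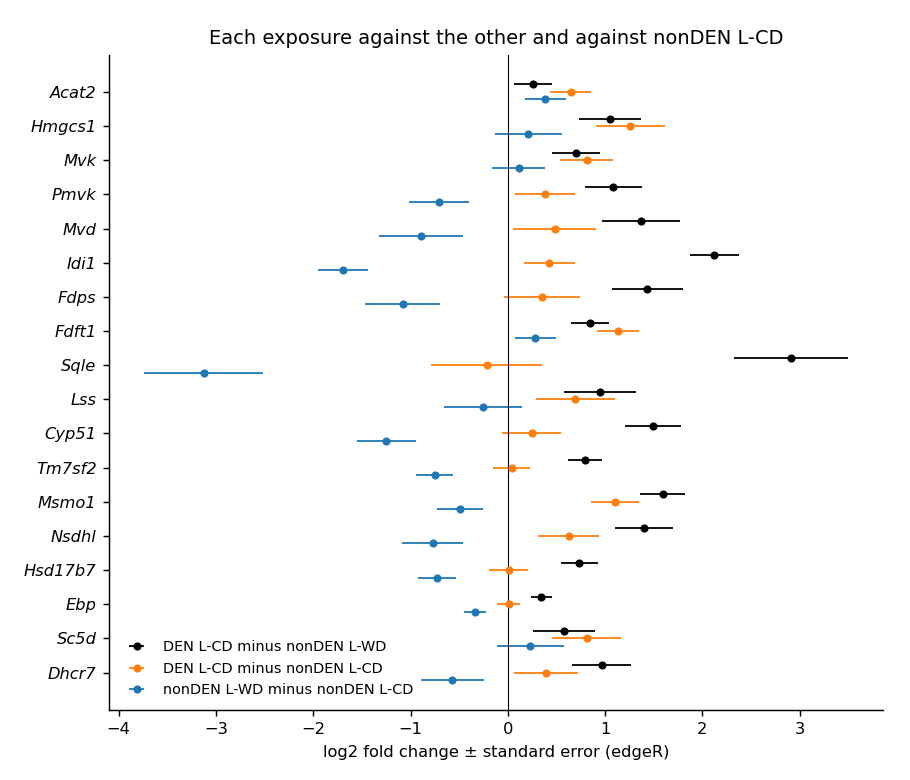
Log2 fold change with its standard error (horizontal axis) of the 18 cholesterol synthesis enzymes (vertical axis) in 3 comparisons, DEN L-CD minus nonDEN L-WD in black, DEN L-CD minus nonDEN L-CD in orange and nonDEN L-WD minus nonDEN L-CD in blue. For *Sqle*, *Idi1* and *Cyp51* the blue point lies far below 0 and the orange point near 0, while for *Msmo1* the orange point is at 1.10 and the blue point at −0.49.

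In peritumoral liver, where mice had both exposures, 4 of the 5 called enzymes were called lower than in DEN L-CD, against 0.378% of all genes. The 5 were chosen for high values in the same DEN L-CD libraries, so nothing is read from this count. The log2 fold changes of DEN PT-WD against DEN L-CD were −1.58 (adjusted p = 0.000293) for *Idi1*, −1.15 (adjusted p = 0.00119) for *Msmo1*, −1.14 (adjusted p = 0.00536) for *Cyp51* and −1.13 (adjusted p = 0.00646) for *Nsdhl*. *Sqle* was at −0.86 (adjusted p = 0.222). Against nonDEN L-WD, *Sqle* alone of the 5 was called in DEN PT-WD, at 2.05 (adjusted p = 0.0156), where 2.36% of all genes were called higher. Its 8 DEN PT-WD libraries ran from 201 to 1282 (median 579).

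The sequences before the start sites of the called enzymes are shown because these genes were called in the same direction between DEN L-CD and nonDEN L-WD. RefSeq (GRCm38.p6) promoters, from 250 bases before to 50 after the start, were at hand for 15 of the 18 enzymes and 4 of the 5 called ones. CCAAT, the box bound by NF-Y, a factor known to act beside SREBP2, was searched on both strands (ATTGG on the other). It was found in 14 of the 18 promoters of the 15 enzymes, including those of all 4 called ones, and in 37.4% of 32851 promoters. TCACNCCAC, a form of the sterol regulatory element that SREBP2 binds, was found in 1 of the 18, that of *Hmgcs1*, and in 1.24% of promoters. CACGTG, the E-box, was found in 3 of the 18 and in 7.15% of promoters. A match describes these letters and does not show binding. The 250 bases before the start are printed for the 4 called enzymes and *Hmgcs1*, 5′ to 3′ on the gene's strand, with CCAAT or ATTGG and TCACNCCAC matches in capitals.
Idi1 (chr13:8885356-8885605, plus strand): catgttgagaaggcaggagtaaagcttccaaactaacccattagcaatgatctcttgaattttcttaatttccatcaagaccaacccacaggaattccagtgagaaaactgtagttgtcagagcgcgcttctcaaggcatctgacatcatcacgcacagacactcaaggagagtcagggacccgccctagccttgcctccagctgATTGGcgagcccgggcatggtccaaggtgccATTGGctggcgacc
Cyp51 (chr5:4104698-4104947, minus strand): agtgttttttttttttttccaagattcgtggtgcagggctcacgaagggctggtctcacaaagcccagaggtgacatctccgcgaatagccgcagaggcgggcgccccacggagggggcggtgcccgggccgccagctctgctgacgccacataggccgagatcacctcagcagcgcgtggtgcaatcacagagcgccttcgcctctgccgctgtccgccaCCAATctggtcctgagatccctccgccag
Msmo1 (chr8:64733579-64733828, minus strand): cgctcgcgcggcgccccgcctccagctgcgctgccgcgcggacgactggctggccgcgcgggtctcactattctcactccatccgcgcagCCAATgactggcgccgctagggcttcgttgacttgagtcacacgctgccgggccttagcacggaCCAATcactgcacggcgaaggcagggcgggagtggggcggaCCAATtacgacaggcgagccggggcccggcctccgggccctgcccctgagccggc
Nsdhl (chrX:72918271-72918520, plus strand): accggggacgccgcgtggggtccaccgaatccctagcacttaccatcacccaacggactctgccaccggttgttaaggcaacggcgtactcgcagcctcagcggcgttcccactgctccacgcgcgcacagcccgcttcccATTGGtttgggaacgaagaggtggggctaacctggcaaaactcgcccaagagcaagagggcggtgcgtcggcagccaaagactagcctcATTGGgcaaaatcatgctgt
Hmgcs1 (chr13:119690101-119690350, plus strand): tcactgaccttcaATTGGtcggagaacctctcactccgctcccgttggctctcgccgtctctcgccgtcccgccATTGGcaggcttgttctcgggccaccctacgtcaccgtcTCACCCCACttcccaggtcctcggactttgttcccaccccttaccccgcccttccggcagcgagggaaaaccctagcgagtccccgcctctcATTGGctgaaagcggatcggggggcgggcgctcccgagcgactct
In these windows the ATTGG or CCAAT closest to the start lay 14 bases before it in *Idi1*, 29 in *Cyp51*, 55 in *Msmo1* and 20 in *Nsdhl*, counted to the leftmost letter.

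Among the regulators of the pathway and the genes of sterol uptake, no call was made. None of the 13 listed was called with edgeR, 5 had an unadjusted p under 0.05 (3 higher, 2 lower), against 13.5% of all genes, and DESeq2 called 1, *Npc1l1*. The median log2 fold change was 0.16. *Srebf2*, which encodes SREBP2, had 754, 717, 839 and 794 counts in DEN L-CD and 700.3, 766, 704 and 569 in nonDEN L-WD, at a log2 fold change of 0.18 ± 0.12 (SE), adjusted p = 0.562. *Scap*, the escort of SREBP2, was at 0.26 (adjusted p = 0.501), and the proteases that release it, *Mbtps1* and *Mbtps2*, were at −0.15 and 0.03. The retention factor *Insig1*, itself an SREBP2 target, had 4967, 7953, 8624 and 7063 counts in DEN L-CD and 4757, 5201, 4986 and 3337 in nonDEN L-WD. Only DEN L-CD replicate 1 fell within the nonDEN L-WD range (log2 0.65 ± 0.31, adjusted p = 0.364). *Insig2*, which SREBP2 does not induce, was on the other side, at log2 −0.70 ± 0.27, adjusted p = 0.228.

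*Stard4*, a sterol carrier, was at log2 0.70 ± 0.30, adjusted p = 0.299. *Mylip*, a ubiquitin ligase induced by LXR, was at −0.21, *Tmem97* at 0.16, and the lysosomal sterol exporters *Npc1* and *Npc2* at 0.06 and 0.16. *Scarb1*, the receptor for high-density lipoprotein, was at log2 −0.43 ± 0.13, adjusted p = 0.126. *Npc1l1*, the sterol importer, was near the limit of detection, with 2.12, 1.20, 21.9 and 12.2 counts in DEN L-CD and 0, 0, 0 and 1.07 in nonDEN L-WD.

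On the side of sterol export, none of the 12 genes in the LXR list was called with edgeR or DESeq2. The list held the receptors themselves and other sterol genes beside LXR targets. Of the 12, 2 had an unadjusted p under 0.05, against 13.5% of all genes. *Abcg5*, part of the transporter that moves sterol into bile, had 2049, 2041, 1653 and 2133 counts in DEN L-CD and 3747, 2984, 3322 and 2761 in nonDEN L-WD. The groups did not overlap, and it passed the adjusted p without reaching the fold threshold (log2 −0.70 ± 0.16, adjusted p = 0.0422). Its partner *Abcg8* had 2322, 2360.3, 2223 and 2664 and 3907, 3090.4, 3455 and 2701 counts (log2 −0.46 ± 0.18, adjusted p = 0.247). *Tm6sf2*, which acts in the lipidation of very-low-density lipoprotein, also passed the adjusted p alone, at log2 0.50 ± 0.12, adjusted p = 0.0457. No member of the bile acid list (19 genes) or the fatty acid synthesis list (22 genes) was called with edgeR or DESeq2. Their median log2 fold changes were −0.08 and 0.26, and 2 and 5 members had an unadjusted p under 0.05, against 13.5% of all genes.

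Genes of fat storage and fat oxidation lay on the nonDEN L-WD side without passing. Of 18 lipid droplet and fat uptake genes, 1 had a log2 fold change above 0, where 48.1% of all genes did, and the median was −0.25. None was called with edgeR or DESeq2, and 5 had an unadjusted p under 0.05, against 13.5% of all genes. *Cidec*, which fuses lipid droplets, had 619, 921, 624 and 603 counts in DEN L-CD and 1695, 1996, 2129 and 1248 in nonDEN L-WD. Its relative *Cidea* had 171, 334, 193 and 226 and 1116, 1044, 1888 and 755 counts. The groups of both stayed apart (log2 −1.35 ± 0.46, adjusted p = 0.163 and log2 −2.38 ± 0.78, adjusted p = 0.153, respectively). The PPAR alpha list held 20 genes, *Ppara* itself and its targets, which serve fat oxidation. None of them was above 0, where 48.1% of all genes were, and the median was −0.27. None was called with edgeR or DESeq2, and 2 had an unadjusted p under 0.05, against the same 13.5% of all genes. *Vnn1*, one of them, was at log2 −0.70 ± 0.27, adjusted p = 0.235.

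Outside sterol synthesis, the genes higher in DEN L-CD included 5 that were highest in DEN L-CD replicate 4. *Akr1c18* (chromosome 13, 4132615 to 4150654), a hydroxysteroid dehydrogenase that inactivates progesterone, had 136, 101, 155 and 606 counts in DEN L-CD and 1.95, 0, 5.15 and 2.13 in nonDEN L-WD, at a log2 fold change of 6.71 ± 1.44 (SE), adjusted p = 0.0266. The nonDEN L-WD values sat near 0, as did nonDEN L-CD, at 2.34, 3.45 and 8.02. *Cyp2a4* (chromosome 7, 26307169 to 26315088), a steroid hydroxylase known for higher expression in female mouse liver, had 1467, 1351, 2943 and 8562 counts in DEN L-CD. It had 420.4, 33.1, 8.24 and 0 in nonDEN L-WD, where replicate 1 stood far above the other 3, at a log2 fold change of 4.95 ± 1.06 (SE), adjusted p = 0.0266. Without that replicate the log2 fold change was 7.97. In nonDEN L-CD it had 1.17, 2.30 and 2.29 counts. It shares 38% of its 50-base words with other genes, mainly *Cyp2a5*, whose log2 fold change was 0.16 (adjusted p = 0.954), so the split of reads between them is uncertain.

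*Afp* (chromosome 5, 90490737 to 90508907), alpha-fetoprotein, the fetal serum protein used as a marker of liver cancer, had 142, 57.8, 89.8 and 453 counts in DEN L-CD and 21.5, 16.1, 16.5 and 18.1 in nonDEN L-WD, at a log2 fold change of 3.35 ± 0.79 (SE), adjusted p = 0.0457. nonDEN L-CD was at the nonDEN L-WD level, with 10.5, 14.9 and 17.2. *Gstp2* (chromosome 19, 4040285 to 4046023), a pi-class glutathione S-transferase, had 355, 345, 544 and 888 counts in DEN L-CD and 52.7, 77.6, 43.3 and 46.9 in nonDEN L-WD, at a log2 fold change of 3.26 ± 0.77 (SE), adjusted p = 0.0462. In nonDEN L-CD it had 310.0, 192 and 207, between the groups compared. It shares 54.3% of its words, mainly with *Gstp1*, which was at 0.63 (adjusted p = 0.194). *Esm1* (chromosome 13, 113209659 to 113218098), a secreted proteoglycan best known from endothelium, had 117, 127, 98.3 and 144 counts in DEN L-CD and 49.7, 46.4, 36.1 and 32.0 in nonDEN L-WD, at a log2 fold change of 1.56 ± 0.32 (SE), adjusted p = 0.0188.

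DEN L-CD replicate 4 was the highest of its group for all 5 of these genes, and none of the 5 was called without it. It was also the highest for the called genes *Cacna1b*, *Fam19a2*, *Gm9791* and *Gm15387*. *Akr1c18* was not called without nonDEN L-WD replicate 1, 2 or 3 either, nor *Cyp2a4* and *Esm1* without replicate 2 or 3. Among the 8 settings that leave out a library, *Afp* kept the call only without DEN L-CD replicate 2, and *Gstp2* lost it in all. The log2 fold changes in these settings ran from 5.78 to 7.42 for *Akr1c18*, from 4.05 to 7.97 for *Cyp2a4* and from 2.42 to 3.65 for *Afp*. They ran from 2.90 to 3.48 for *Gstp2* and from 1.46 to 1.66 for *Esm1*. Over all 19 alternatives *Afp* lost the call in 14, *Gstp2* in 12, *Cyp2a4* in 8, *Akr1c18* in 6 and *Esm1* in 5. *Afp* missed without the filter on low counts (adjusted p = 0.0598) and *Cyp2a4* with only the 2 groups fitted (adjusted p = 0.0777). In peritumoral liver, the highest values of 4 of the 5 genes lay above those of DEN L-CD. DEN PT-WD libraries ran from 118 to 2401 (median 815) for *Akr1c18*, from 2126 to 24712 (median 10836) for *Cyp2a4*, from 92.6 to 1706 (median 510.2) for *Afp* and from 110.0 to 356 (median 257) for *Esm1*. *Gstp2* was the exception there, from 131 to 880.2 (median 232), with −0.75 (adjusted p = 0.419) on the log2 scale against DEN L-CD. Against DEN L-CD, *Esm1* alone of the 5 was called in DEN PT-WD at 1.04 (adjusted p = 0.0137), where 1.9% of all genes were. In tumors *Akr1c18* ran from 271 to 7362, *Cyp2a4* from 50338 to 74558, *Afp* from 1096 to 2612, *Esm1* from 524 to 1028 and *Gstp2* from 221 to 4781 counts, and the highest tumor value of each lay above DEN L-CD. *Bglap3*, an osteocalcin-related gene, was also called, at log2 3.57 ± 0.73, adjusted p = 0.0191. Its counts were 24.4, 16.9, 272 and 24.4 in DEN L-CD and 6.83, 9.46, 8.24 and 3.20 in nonDEN L-WD, so replicate 3 stood far above the rest of its group. Without it the log2 fold change was 1.64 and not called, with no overlap between the remaining values. Nor was it called without nonDEN L-WD replicate 1, 2 or 3.

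**Figure D4:**
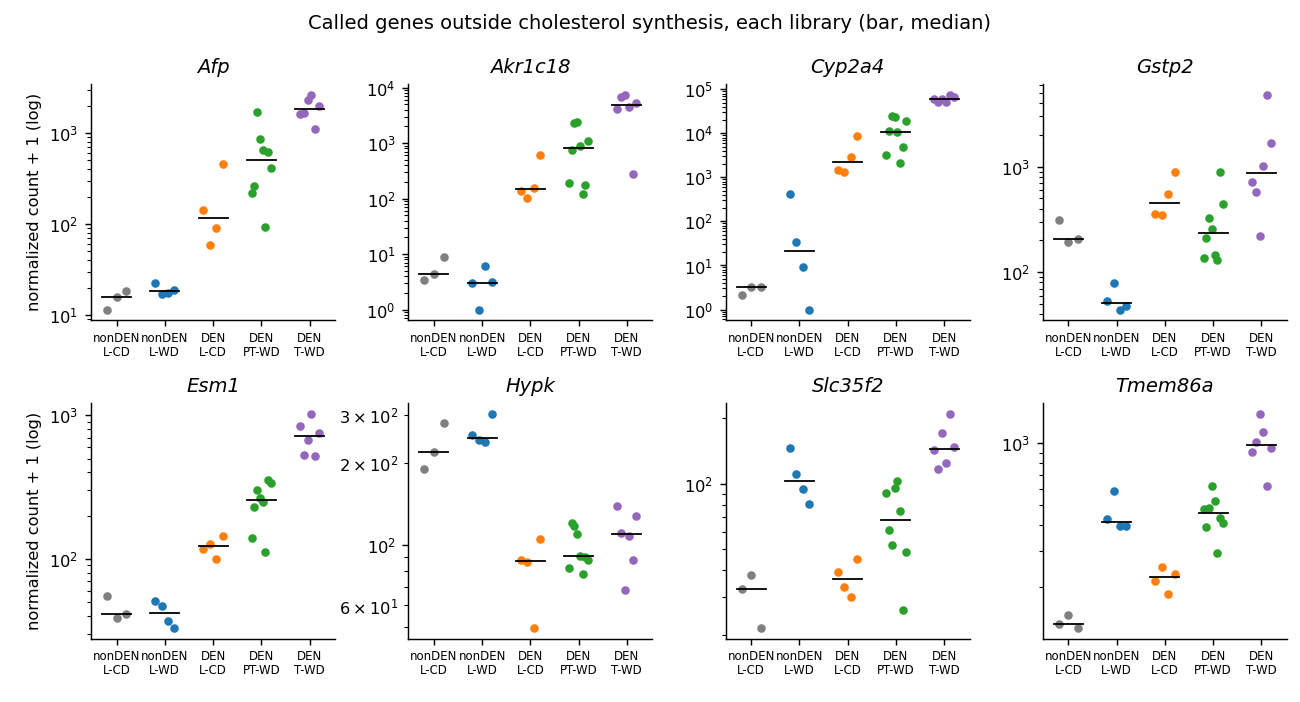
Normalized count plus 1 on a log axis (vertical) in each library of the 5 groups (horizontal), with the median as a bar, for 8 called genes outside cholesterol synthesis. *Akr1c18*, *Cyp2a4* and *Afp* climb from DEN L-CD over DEN PT-WD to DEN T-WD in their medians, and *Hypk* is lower in all DEN groups than in both nonDEN groups.

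The list of oncofetal and tumor markers had a median log2 fold change of 1.44, with 12 of 15 genes above 0, where 48.1% of all genes were. *Afp* was its only called member, against 0.192% of all genes called higher. Of the 15, 9 had an unadjusted p under 0.05 (8 higher, 1 lower), against 13.5% of all genes. *Tff3*, a trefoil peptide, had 217, 55.4, 200.3 and 192 counts in DEN L-CD and 34.1, 1.89, 9.28 and 46.9 in nonDEN L-WD, which narrowly missed (log2 2.86 ± 0.69, adjusted p = 0.0531). *H19*, an imprinted fetal RNA, had 239.7, 147, 93.5 and 255 and 50.7, 55.8, 69.1 and 19.2 counts (log2 1.91 ± 0.67, adjusted p = 0.183). *Gpc3*, a cell-surface proteoglycan of liver tumors, had 105, 147, 194 and 669 and 84.9, 51.1, 58.7 and 32.0 counts (log2 2.29 ± 0.91, adjusted p = 0.254). Replicate 4 was again the highest DEN L-CD library for *H19* and *Gpc3*. Tumor tissue in the DEN L-CD samples and higher expression in the liver around it cannot be told apart in bulk RNA. *Myc*, of the immediate early list, missed the threshold as well, with 193, 679.5, 926 and 203 counts in DEN L-CD and 66.3, 107, 81.4 and 201 in nonDEN L-WD (log2 2.13 ± 0.51, adjusted p = 0.0511). DESeq2 called *Tff3*, *Meg3*, another imprinted RNA, and *Myc* as well. In the cell cycle list, none of 20 genes was called with edgeR or DESeq2. An unadjusted p under 0.05 was found for 2, against 13.5% of all genes, *Pcna* at 0.34 and *Rrm2* at 0.65.

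Of the genes lower in DEN L-CD, *Hypk* (chromosome 2, 121453290 to 121458672), a partner of the N-terminal acetyltransferase complex, had the smallest adjusted p. It had 87.0, 85.5, 48.6 and 104 counts in DEN L-CD and 252, 242, 237 and 303 in nonDEN L-WD, at a log2 fold change of −1.67 ± 0.21 (SE), adjusted p = 0.000326. The nonDEN L-CD libraries, at 188, 218 and 279.5, lay with nonDEN L-WD, and the 8 DEN PT-WD libraries, from 77.6 to 119 (median 89.8), lay with DEN L-CD. *Hypk* overlaps *Serf2* on the same strand and shares 32.8% of its words, mainly with that gene, which was at 0.11 (adjusted p = 0.396). *Gpat3* (chromosome 5, 100845713 to 100899102), an acyltransferase at the entry of triglyceride synthesis, had 146, 131, 81.3 and 122 counts in DEN L-CD and 248, 265, 273 and 222 in nonDEN L-WD, at a log2 fold change of −1.06 ± 0.22 (SE), adjusted p = 0.0204. nonDEN L-CD was at 274, 237 and 283, level with nonDEN L-WD. Unlike for *Hypk*, the other DEN groups did not lie with DEN L-CD. The 8 DEN PT-WD libraries, from 264 to 485 (median 410), and the tumors, from 222 to 462, all lay above it. *Gpat3* was not called without DEN L-CD replicate 3 or 4 or nonDEN L-WD replicate 1, 2 or 3. The transcript *4930458D05Rik*, which overlaps it on the opposite strand, was also called lower, at −1.71, and reads in the stretch where the 2 genes overlap cannot be separated because the sources used here do not state that counting used strand.

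The other 4 protein-coding genes lower in DEN L-CD were raised with WD above nonDEN L-CD. *Slc35f2* (chromosome 9, 53771538 to 53818154), a solute carrier, had 38.2, 32.5, 29.1 and 44.0 counts in DEN L-CD, 145, 109.7, 93.8 and 79.9 in nonDEN L-WD and 31.6, 36.8 and 20.6 in nonDEN L-CD. *Tmem86a* (chromosome 7, 47050601 to 47054777), a lysoplasmalogenase, had 213, 249, 186 and 232, 429, 586, 398 and 397 and 132, 146 and 126 counts in the same order. DEN L-CD stood with nonDEN L-CD for *Slc35f2* and between the other groups for *Tmem86a*. Between the groups compared they were at log2 −1.57 ± 0.32, adjusted p = 0.019 and log2 −1.04 ± 0.21, adjusted p = 0.0156. *Lpar1*, a receptor for lysophosphatidic acid, and *Adam11*, a member of the ADAM family without protease activity, were at log2 −1.06 ± 0.20, adjusted p = 0.0151 and log2 −1.08 ± 0.24, adjusted p = 0.0325. Against nonDEN L-CD, the values in nonDEN L-WD were 1.85 (adjusted p = 0.00096) for *Slc35f2*, 1.75 (adjusted p = 2.54e-05) for *Tmem86a*, 1.25 (adjusted p = 0.000354) for *Lpar1* and 1.19 (adjusted p = 0.00249) for *Adam11*, all 4 called, where 3.24% of all genes were called higher. They were chosen for high values in the same nonDEN L-WD libraries, so nothing is read from this count. In DEN L-CD they were 0.28 (adjusted p = 0.627), 0.71 (adjusted p = 0.0331), 0.20 (adjusted p = 0.553) and 0.12 (adjusted p = 0.787), none called. Each of the 4 lost its call in 3 to 6 of the 8 settings that leave out a library.

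Across the 39 genes, the nonDEN L-CD mean lay nearer to nonDEN L-WD in 27 and nearer to DEN L-CD in 12. Against nonDEN L-CD, 19 of the 39 were called in DEN L-CD, 10 in nonDEN L-WD, 1 of them in both, *Cyp2a4*, and 11 in neither. Over all genes these shares were 4.7% in DEN L-CD and 5.28% in nonDEN L-WD. The 39 were chosen on the same DEN L-CD and nonDEN L-WD libraries and include 5 with 1 profile of counts, so nothing is read from these counts.

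The remaining called genes were mostly of low count or of repeated sequence. *Rdh11*, a retinol dehydrogenase, was the best measured, with 1043, 1469, 2037 and 1492 counts in DEN L-CD and 588, 730.3, 666 and 522 in nonDEN L-WD (log2 1.27 ± 0.24, adjusted p = 0.0151). Its nonDEN L-CD values, 1096, 1433 and 997, lay with DEN L-CD. *Nfe2*, a transcription factor of blood cells, had log2 1.95 ± 0.45, adjusted p = 0.0446, and *Fam19a2*, a secreted peptide gene, log2 2.37 ± 0.43, adjusted p = 0.0134. *Cacna1b*, a neuronal calcium channel subunit, had 8.48, 4.82, 13.4 and 36.6 counts in DEN L-CD and at most 1.07 in nonDEN L-WD. *Gm17275* (at 1.56) overlaps *H3f3a* on the opposite strand. *Gm43802*, called lower, lies within *Gbp7*, which holds all of its words and was at 0.11 (adjusted p = 0.89). Its counts were 0, 3.61, 0 and 0 in DEN L-CD and 43.9, 40.7, 46.4 and 37.3 in nonDEN L-WD.

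The called pseudogenes include copies that share every word with a parent gene. These were the copies of *Rpl35a*, together with *Gm12191* and *Gm15387*, whose parents are *Rpl30* and *Hmgb1*. None of these 3 parents passed, with adjusted p of 0.317 for *Rpl35a*, 0.949 for *Rpl30* and 0.997 for *Hmgb1*. The pseudogenes *Gm9791*, *Gm12231*, *Gm6750*, *Hspe1-ps2* and *Gm12807* and the signal recognition particle RNA genes *Rn7s1* and *Rn7s2* were also in the called set. Where a copy shares every word with its parent, the assignment of reads between them is uncertain. *Hspe1-ps2* and *Gm12807* share less, 11.8% and 7.78% of their words. *Hspe1-ps2* had 11.7, 14.5, 8.50 and 9.77 counts in DEN L-CD and 0.98, 2.84, 3.09 and 2.13 in nonDEN L-WD (log2 2.24 ± 0.39, adjusted p = 0.011).

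Of 20 pathway lists, 4 held a called gene. Beside cholesterol synthesis these were the tumor markers, with *Afp*, and the cytochrome P450 and female-biased lists, each with *Cyp2a4*. None of 15 male-biased genes was called or had an unadjusted p under 0.05, and *Cyp2b9*, another female-biased P450, had 187, 253, 114 and 538 counts in DEN L-CD and 7.80, 61.5, 30.9 and 7.46 in nonDEN L-WD (log2 3.32 ± 0.92, adjusted p = 0.0854). *Cyp2e1*, the P450 that activates DEN, was at log2 −0.47 ± 0.21, adjusted p = 0.314. None of 16 p53 targets was called with edgeR, while 2 had an unadjusted p under 0.05, against 13.5% of all genes. These were *Sesn2* and *Gdf15*, both lower in DEN L-CD, at −0.45 and −1.07. The clock list (18 genes) and the acute phase list (16 genes) had no call and no gene at an unadjusted p under 0.05. Their medians were −0.05 and 0.22. DESeq2 called no gene of the male-biased, p53, clock or acute phase lists, and added *Cyp2b9* in the P450 and female-biased lists. Against nonDEN L-CD, 8 of the 16 acute phase genes were called lower in DEN L-CD and 11 in nonDEN L-WD, where 1.93% and 2.04% of all genes were. Both counts rest on the same nonDEN L-CD libraries, whose summed TPM of the list was 17334, 43571 and 44118. The sums ran from 12735 to 20694 in DEN L-CD and from 11515 to 18374 in nonDEN L-WD. The lowest nonDEN L-CD library thus lay within both ranges.

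None of 99 markers of 13 cell types and tissues was called with edgeR or DESeq2, and 11 had an unadjusted p under 0.05, against 13.5% of all genes. Summed TPM of 12 acinar pancreas markers ran from 40.1 to 2556 in DEN L-CD and from 45.4 to 1634 in nonDEN L-WD, so pancreas RNA varied within both groups. Sums of 12 Kupffer cell and macrophage markers ran from 187 to 341 and from 179 to 309. Those of 10 stellate cell markers ran from 177 to 215 and from 161 to 265, and those of 6 B cell markers from 33.7 to 265 and from 37.4 to 141. The sums did not overlap for neutrophil markers (4 of 6 tested), at 8.65 to 21.5 in DEN L-CD and 5.07 to 7.38 in nonDEN L-WD, with *S100a8* at log2 1.60 ± 0.54, adjusted p = 0.162. Nor did those of kidney and gut epithelium (3 of 6 tested), at 118 to 196 and 245 to 394, nearly all of it from *Fabp2*, a fatty acid binding protein of gut that liver also expresses (log2 −0.68 ± 0.28, adjusted p = 0.288). The part of such cells in the differences above was not tested.

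**Figure D5:**
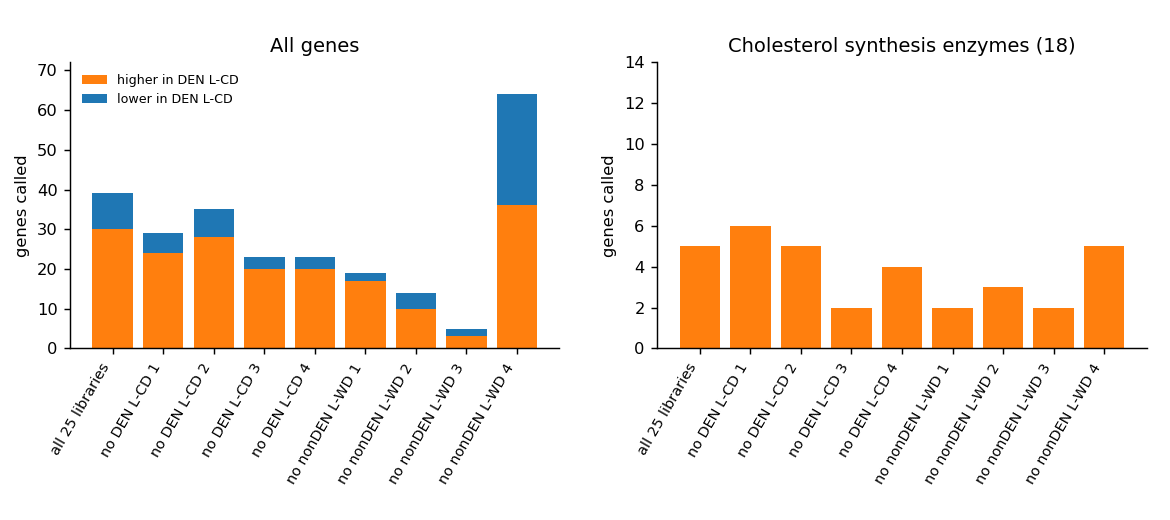
Number of genes called (vertical axis) with all 25 libraries and with each of the 8 libraries left out (horizontal axis), among all genes on the left and among the 18 cholesterol synthesis enzymes on the right, orange for higher and blue for lower in DEN L-CD. The count for all genes falls to 5 without nonDEN L-WD replicate 3 and rises to 64 without replicate 4, and that for the enzymes runs from 2 to 6.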

How the data were processed

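The members of the comparison, the gene lists and the rule for named genes were chosen with earlier results of these data known. Liver RNA was sequenced from KAPA mRNA HyperPrep libraries. Per the labels, the authors checked reads with FastQC and used STAR and RSEM with GRCm38, and they deposited an expected count, an effective length and a TPM value (transcripts scaled to an equal total) per gene and library. Their tests used DESeq2. The setting for strand is not given in the sources used here.

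Expected counts were rounded to whole numbers. Genes passed edgeR's filter by group (minimum count 10), libraries were scaled by TMM, and 1 quasi-likelihood model over all 25 libraries and 5 groups (20 residual degrees of freedom, edgeR 4.0.16 in R 4.3.3) gave each contrast. A gene was called at a Benjamini-Hochberg adjusted p of at most 0.05 over all 15625 genes tested and a log2 fold change of at least 1 in either direction. Some members of the cholesterol synthesis and SREBP2 lists are not reported here and are left out of the counts for the lists. Named genes were all their other members, called genes in any list, and the 10 largest called changes in each direction whose higher group averaged 50 normalized counts or more. The deposited TPM was used for sums over lists only. Gene positions are those of GENCODE on GRCm38. Shared words are 50-base stretches of a gene's exons also found in another gene. The depth, 24628880 to 31120744 counts per library in the groups compared, bounds counting error only.

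Replicate numbers were not used to pair libraries: the labels name no shared litter or day, and correlations of deviations between same-numbered libraries were 0.0065, 0.0577, −0.234 and −0.209. Alternatives were DESeq2 1.42.0, other size factors, no filter, fits of 2 or 4 groups, a replicate block, a tested fold threshold, each library left out and, chosen after seeing the data, removal of trends on GC content and length.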

Additional observations from a re-analysis of the deposited data

Results flagged for a closer look

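In groups of 4 libraries, 1 library lay far from the other 3 for the genes below. Of 130 groups examined (65 genes), 15 met this criterion. About 1 in 20 groups of independent, normally distributed values would meet it by chance. Counts near 0 and genes that share 1 profile are not such values, so the 15 are not compared with that rate. For *Akr1c18*, DEN L-CD replicate 4 had 606 normalized counts, against 101 to 155 in the others. For *Bglap3*, DEN L-CD replicate 3 had 272, against 16.9 to 24.4. For *Cyp2a4*, nonDEN L-WD replicate 1 had 420, against 0 to 33.1. nonDEN L-WD replicate 2 was the high library for *Stard4*, at 3675 against 2475 to 2585, and for *Tmem86a*, at 586 against 397 to 429, and the low library for *Scap*, at 1517 against 1920 to 1935. At low counts, the same library was high for *Gm9791*, at 5.68 against 0, and low for *Rpl35a-ps2*, *Rpl35a-ps3*, *Rpl35a-ps4*, *Rpl35a-ps6* and *Gm10243*, which share 1 profile, at 0.946 against 1.95 to 2.13. nonDEN L-WD replicate 4 had 1.07 counts of *Npc1l1* and of *Cacna1b*, against 0 in the others. DEN L-CD replicate 2 had 3.61 counts of *Gm43802*, against 0. No explanation of these values was tested.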

How the results depend on the processing

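The count of 39 genes became 82 with DESeq2 (62 higher, 20 lower, 30 shared with the 39), 112 without a minimum fold change and 25 with a replicate block in a fit of the 2 groups only, and it ran from 5 to 64 with a library left out. With edgeR's test against the fold threshold itself it was 0 (154 genes at an unadjusted p under 0.05), as it was for the enzymes of cholesterol synthesis (6 at an unadjusted p under 0.05). With only the 2 groups fitted, 53 genes were called and 33 of them (against 30 of 39) were higher, with 22 of the 39 among them. For the enzymes, the count of 5 became 9 with DESeq2 and ran from 2 to 6 with a library left out. For the SREBP2 list it was 1 with DESeq2, *Npc1l1*, and 0 in the other settings.

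Replicate numbers do not pair these libraries. With the replicate block over all 5 groups, 39 genes were called, 31 of them among the original 39, and the same number of enzymes, 5. The block in the fit of 2 groups gave 3 enzymes, and with GC and length trends removed as well, all groups and the block gave 21 genes and 4 enzymes.

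Values near 0 changed sign. With a library left out, *Mbtps2* ran from −0.00241 to 0.0973 and *Npc1* from −0.00671 to 0.11, both below 0 without nonDEN L-WD replicate 2. *Mbtps2* was also at −0.0457 with GC and length trends removed and at −0.0446 with the block added. Over the named genes and their alternatives, 687 of 814 values kept direction and side of the threshold, 113 lost the call, 10 gained one and 4 changed sign. Named genes that were not called are among the 814 values and could not lose a call. All 113 lost calls came from the called genes, so the 687 do not measure how steady the calls were. The cause of each change was not tested. Genes under 50 counts and those sharing sequence with a copy are the least certain.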
